A study of Thermothelomyces thermophilus with 49 samples.

Results

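The 55 genes described here were induced moderately in the first 0.5 h after a cellulose pulse in 2 strains that carry the regulator gene clr1, and were not induced in a strain that lacks it. They were picked from 9292 counted genes of the filamentous fungus Thermothelomyces thermophilus by their change at that time. For each gene the CPM values (counts scaled by the total of each library) of the 2 cultures of a group were averaged, and d was taken as the difference of log2(mean CPM + 1) between 0.5 h and the steady state. A gene was kept where its highest group mean was 10 CPM or more, d was between 1 and 3 in the parental strain, at least 1 without clr2 and at most 0.5 without clr1. On this scale a d of 1 is a 2-fold and a d of 3 an 8-fold rise, and the added 1 makes the change of weakly expressed genes look smaller. In all 56 genes met these limits, of which 1 was left out by its identifier. Of the 7661 genes that reached 10 CPM in some group, 409 had a parental d between 1 and 3, and 229 of those had a d of at least 1 without clr2.

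The fungus was grown in glucose-limited chemostats. At steady state part of the broth was replaced by medium with cellulose and without glucose, here called the pulse. The cultures then went on as a batch. Changes after the pulse thus also include the end of the glucose feed, and the 2 cannot be told apart. The paper reports that the strains without clr1 or clr2 then stopped growing. Every strain lacked ku80, including the controls: BS7.8 lacked ku80 and clr1, BS6.4 lacked ku80 and clr2, JK2.8 lacked ku80 and clr4, and MJK20.3 lacked ku80 only and is called the parental strain. The deletion strains are single clones. Poly(A) RNA of 48 libraries was sequenced, from 2 bioreactor cultures of each strain sampled in the exponential phase (ex), at steady state before the pulse (SS) and 0.5, 1, 2 and 4 h after it (t1, t2, t3 and t4). Whole cultures were sequenced, so fewer cells of a kind and less RNA per cell cannot be told apart.

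In fungi, the zinc cluster proteins Clr1 and Clr2 switch on the genes for taking cellulose apart. In Neurospora crassa, Clr1 responds to cellobiose, the disaccharide released from cellulose, and raises the transcription of clr2, whose product then drives most cellulase genes. Earlier work described Clr4 as a further activator of cellulase genes in T. thermophilus and in N. crassa. From the present cultures the paper instead proposes that Clr4 represses cellulase genes, presumably through clr2.

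Libraries held between 2567179 and 22212257 gene counts, with BS6.4 at the low end and JK2.8 at the high end. Transcripts of the deleted gene were close to absent in each deletion strain, with at most 1.45 CPM for clr1 in BS7.8, 0.165 CPM for clr2 in BS6.4 and 0.127 CPM for clr4 in JK2.8. In the other strains clr1 had 35.3 to 434 CPM. BS7.8 and JK2.8 were sequenced at one centre, BS6.4 and MJK20.3 at another, and only the RNA of BS6.4 and MJK20.3 had been purified and DNase-treated beforehand. Tests between strains were therefore made only within a centre, and values of strains from both centres side by side are a description. No library stood out as a copy of another.

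The regulator gene clr2, which is not among the 55 genes, had 18.8 and 39.9 CPM in BS7.8 at t1, against 2072 and 2157 CPM in JK2.8. It was thus low in the strain without clr1, with no overlap. MJK20.3, sequenced at the other centre, had 289 and 506 CPM of clr2 at t1, above BS7.8 and below JK2.8.

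By the values that chose them, the 55 genes had a median d at t1 of −0.01 in BS7.8 and 1.62 in BS6.4, against 1.76 in MJK20.3. Both t1 libraries lay above both SS libraries for all 55 genes in BS6.4 and in MJK20.3, as against 42.8% and 26.2% of all genes at 10 CPM or more. In BS7.8 this held for 6 of the 55 genes and the opposite for 14, as against 33.8% and 40.6% of all genes. These numbers describe the choice of the genes and are no test of it. The later hours and JK2.8 took no part in the choice, apart from the level limit: 50 of the 55 genes reached 10 CPM in the groups that gave d, and outside those groups MYCTH_2303110 reached it in JK2.8 at t1 alone and MYCTH_2129802 in BS6.4 at t4 alone.

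The median rise was largest at t1 in all 3 strains with clr1 and had not gone by t4 in any of them. From t1 through t2 and t3 to t4, the median d against SS was 1.84, 1.42, 1.02 and 0.81 in JK2.8 and 1.76, 1.35, 1.11 and 0.86 in MJK20.3. In BS6.4 it was 1.62, 0.87, 0.79 and 1.2, lowest at t3, and in BS7.8 it stayed between −0.01 and 0.22. Since every d of a strain shares its SS libraries, the times are not independent. In BS6.4 and MJK20.3 the d at t1 also chose the genes, so a largest rise at t1 was partly built in there. JK2.8 gave no d for the choice.

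**Figure D1:**
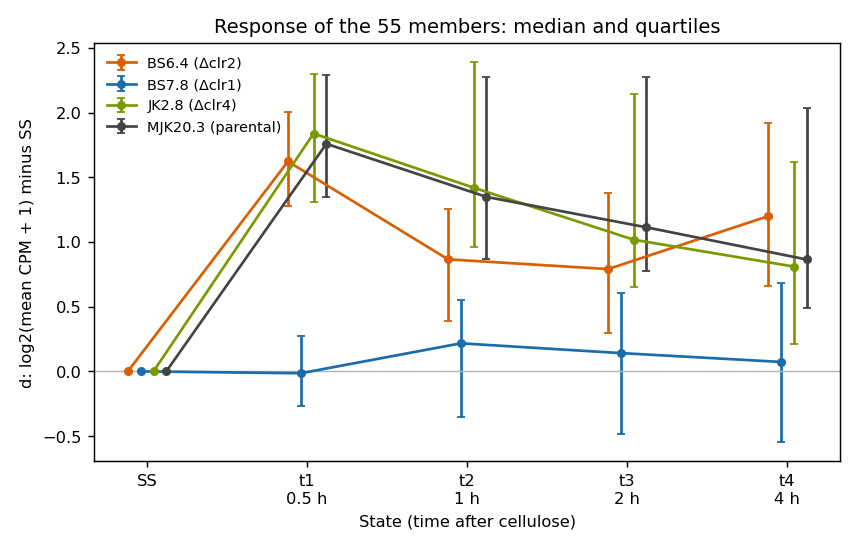
Change of the 55 genes against steady state, d in log2(mean CPM + 1), at SS and 0.5, 1, 2 and 4 h after the cellulose pulse, as the median over genes (points and lines) with quartiles (bars) for each strain. Medians of BS7.8 stay between −0.01 and 0.22, while those of the other strains start between 1.62 and 1.84 at t1.

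The share of all gene counts that the 55 genes held together was also followed. From SS through t1, t2, t3 and t4 it was 0.425%, 0.398%, 0.479%, 0.409% and 0.370% in BS7.8, which was nearly flat. In BS6.4 it was 0.590%, 1.76%, 0.762%, 0.781% and 0.852%, highest at t1. In JK2.8 it was 0.416%, 1.2%, 1.01%, 0.938% and 0.819%, and in MJK20.3 it was 0.579%, 1.97%, 1.15%, 1.13% and 0.829%, both with a slower decline. One gene weighed heavily in these shares, MYCTH_2315548, which alone held 0.971% at t1 and 0.334% at SS in BS6.4. Without it the others held 0.790% at t1 against 0.255% at SS in BS6.4, 0.874% against 0.234% in JK2.8, and 1.04% against 0.244% in MJK20.3. The highest of the 4 times after the pulse was t1 for 41 genes in BS6.4 and 31 in JK2.8, and for 29 in MJK20.3. No gene was highest at t2 in BS6.4, whereas 16 were in JK2.8 and 11 in MJK20.3. The mean at t2 lay below those at both t1 and t4 for 41 of the 55 genes in BS6.4 (36.1% of all genes). This held for 6 in JK2.8 (40.2%) and for 13 in MJK20.3 (34.5%). The t1 libraries of BS6.4 and MJK20.3 gave d for the choice, which favours high values at t1 there. For these strains all genes are therefore no like comparison, and the counts are a description.

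JK2.8 asked whether the early rise needs clr4, in libraries that the choice did not use for d. At t1, d was 1 or more for 47 of the 55 genes, against 6.96% of all genes. By edgeR's quasi-likelihood test with adjustment over 8565 genes, 52 of the 55 were higher at t1 than at SS in JK2.8 and none was lower, where 17.9% of all tested genes were higher. MYCTH_2303110, whose t1 level in JK2.8 made it a member, is among the 52, and without it 51 of 54 were higher. The median log2 fold change of the 55 was 2.11, and that of all tested genes −0.04. Both t1 libraries lay above both SS libraries for 53 of the 55, against 25.0% of all genes. Throughout, p-values measure the spread between the 2 cultures of a clone, estimated per gene over all strains and states together. Libraries of the same culture at different states were taken as independent, except where culture was a block.

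The genes with the same parental rise but another strain pattern also rose in JK2.8. Of the 100 genes with d of at most 0.5 in both BS6.4 and BS7.8, 92 were higher at t1, and of the 121 with d of at least 1 in both, 98 were, with medians of 1.64 and 1.32. Whether the 55 genes differ from these was not tested. Below, the first set is said to have needed both regulators and the second neither. The names stand only for these limits in the single deletions, as no strain lacked clr1 and clr2 together.

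Of the 55, 3 were not called in JK2.8 at t1. MYCTH_2308015 had 54.6 and 52.9 CPM at t1, against 54.5 and 56.9 CPM at SS, with a log2 fold change of 0.08 ± 0.20 (SE) and an adjusted p of 0.782. The sign turned to −0.051 when libraries were scaled by their totals. In JK2.8 the 2 states overlapped, while in MJK20.3 it had 226 and 182 CPM at t1, against 90.3 and 91.0 CPM at SS. The difference between these strains was not tested. The others, MYCTH_113450 and MYCTH_78274, varied between cultures and are described with the enzymes.

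By t4, 34 of the 55 genes were still higher than at SS in JK2.8 and none lower, where 8.34% of all tested genes were higher and 8.42% lower, with a median log2 fold change of 1.12. Of these, 33 had been called at t1 as well. In the set that needed neither regulator in the single deletions 27 of 121 genes were still higher at t4, and in the set that needed both, 42 of 100. With library totals 33 of the 55 were higher and 1 lower.

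**Figure D2:**
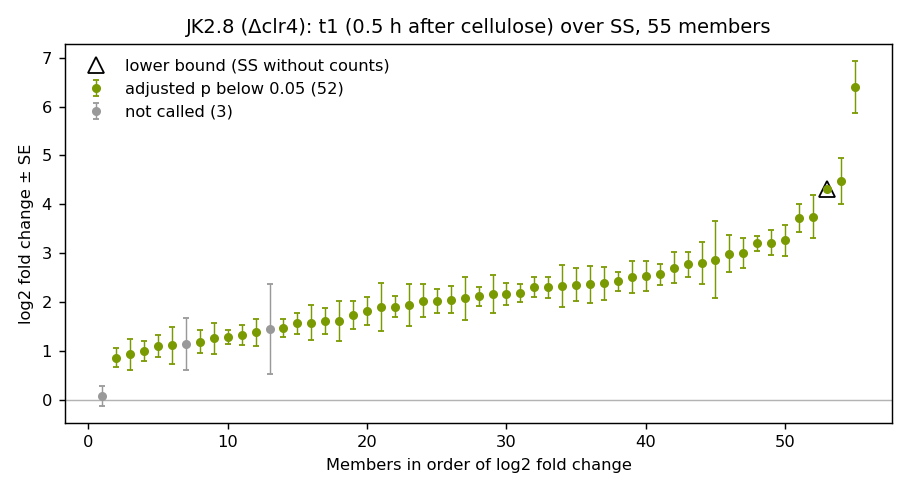
log2 fold change of t1 over SS in JK2.8 for each of the 55 genes, in order of size, with SE bars and colour for the call at an adjusted p of 0.05 by edgeR, and a triangle for the gene without counts at SS, drawn at its lower bound. Of the 55 points 52 are called higher, 3 are not called and none is below 0.

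BS7.8 was set against JK2.8 at t2 and t4, as both were sequenced at one centre, to ask whether the genes stayed off without clr1. At t2, 42 of the 55 genes were lower in BS7.8 than in JK2.8 and 1 was higher, where 18.4% of all tested genes were lower and 17.0% higher. The median log2 fold change was −1.75, and that of all tested genes −0.02. At t4, 38 were lower and 1 was higher, where 27.6% were lower and 26.7% higher, with a median of −1.36. In all, 35 genes were lower at both times, 34 of which had been called higher at t1 in JK2.8.

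The compared sets spread out here. Among the 100 genes that needed both regulators, 85 were lower in BS7.8 than in JK2.8 at t2 and 1 was higher, while among the 121 that needed neither, 18 were lower and 55 higher. At t4 the counts were 70 lower and 3 higher, and 15 lower and 81 higher. Both strains lack a regulator, so these differences are between deletion strains and not from the parental strain.

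BS6.4 was set against MJK20.3 at t2 and t4, to ask whether levels without clr2 differed from the parental strain after t1. They did so for part of the genes. At t2, 28 of the 55 were lower in BS6.4 than in MJK20.3 and 2 were higher, where 20.7% of all tested genes were lower and 18.6% higher, with a median log2 fold change of −0.93. At t4, 22 were lower and 9 higher, where 27.1% were lower and 22.1% higher, with a median of −0.37. Without MYCTH_2129802, which met the level limit through BS6.4 at t4 alone, 8 were higher. The t4 result depends on scaling: with library totals 16 were lower and 17 higher, with a median of 0.10, as the totals moved the median of all tested genes by 0.47. In all, 16 genes were lower at both times, 12 were lower at t2 and not called at t4, and 12 were called at neither. At t1 the choice asked only for a d of at least 1 in BS6.4. That sets a rise without clr2, but not one as large as in MJK20.3. The t1 d was smaller in BS6.4 for some genes, such as MYCTH_2301478 (1.15, against 2.74 in MJK20.3). For others it was larger, such as MYCTH_2304976 (2.97, against 1.73). Independence of clr2 at t1 was thus not tested, and at t2 the level was lower without clr2 for 28 genes.

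At t2 the set that needed both regulators had 86 of 100 genes lower in BS6.4 than in MJK20.3 and 1 higher, and the set that needed neither had 6 of 121 lower and 63 higher. At t4 these were 74 lower and 3 higher, and 7 lower and 76 higher. The share of the 55 genes called lower in BS6.4 thus lay between those of the 2 sets at both times.

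**Figure D3:**
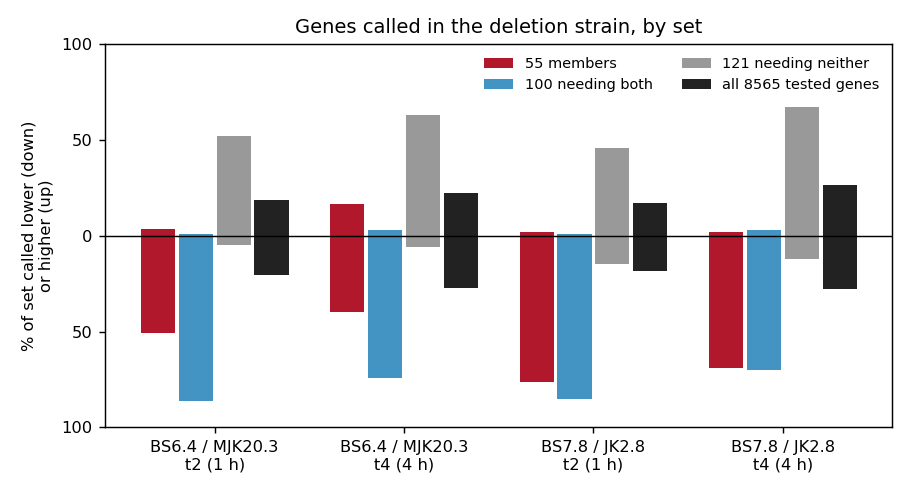
Share in percent of each set called higher (up) and lower (down) by edgeR in BS6.4 over MJK20.3 and in BS7.8 over JK2.8 at t2 and t4, for the 55 genes, the 100 that needed both regulators, the 121 that needed neither and all tested genes. The red bars of the 55 genes reach far down in BS7.8 (42 and 38 genes) and less far in BS6.4 (28 and 22 genes).

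**Figure D4:**
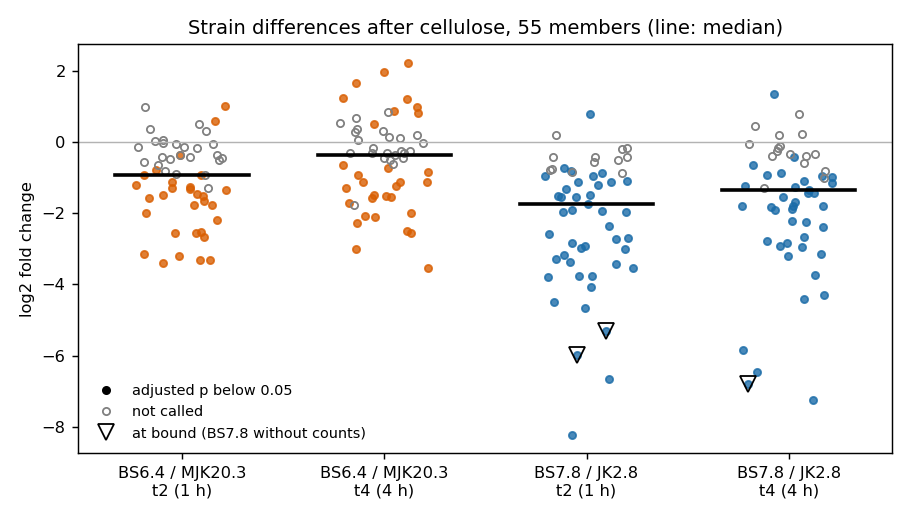
log2 fold change of BS6.4 over MJK20.3 and of BS7.8 over JK2.8 at t2 and at t4, 1 point per gene, filled where the adjusted p was below 0.05, with the median as a line and triangles for genes without counts in BS7.8, drawn at their bound. Medians are −0.93 and −0.37 in BS6.4 and −1.75 and −1.36 in BS7.8.

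Of the 55 genes, 45 carry no entry in the study's tables of carbohydrate-active enzymes (CAZymes) and of predicted transcription factors, 8 are CAZymes and 2 are predicted transcription factors. Of the 396 listed CAZymes, 390 were in the count table, of which 38 had a parental d between 1 and 3 and 62 a d above 3. The 38 include 8 of the 55 genes, 9 of the set that needed both regulators and 6 of the set that needed neither. Of the 47 counted cellulase genes 24 had a parental d above 3 and 1 is among the 55. Of the 312 predicted transcription factors, 10 had a d between 1 and 3.

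In JK2.8 at t1 the lists were counted in the same way. Beside 17.9% higher and 22.1% lower among all tested genes, 154 of 373 tested CAZymes (41.3%) were higher than at SS and 65 (17.4%) lower, and among the cellulases 32 of 46 (69.6%) were higher and 2 lower. Among the predicted transcription factors 58 of 304 (19.1%) were higher and 44 (14.5%) lower, close to all tested genes in the higher direction. All 6 listed genes of the term carbohydrate transport and all 3 of the term protein disulfide isomerase activity were higher, none of which is among the 55. These term lists hold only genes that the study had already called after the pulse in these same data. Their counts were thus largely set beforehand and are no test, and the shares of all tested genes are no like comparison.

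The predicted transcription factor MYCTH_63778, with C2H2 zinc fingers, a fold that binds DNA, is on chromosome 1 from 5210255 to 5212719 of assembly ASM22609v1. It had 327 and 362 CPM at t1 in JK2.8, against 47.9 and 33.7 CPM at SS. The groups did not overlap, and the log2 fold change was 3.20 ± 0.15 (SE; edgeR adjusted p = 6.94e-18). Without clr1, in BS7.8, it had 53.8 and 43.9 CPM at t2, against 506 and 531 CPM in JK2.8, a log2 fold change of −3.76 ± 0.15 (adjusted p = 1.53e-19). In BS7.8 it thus stayed near its own SS level of 39.1 and 43.9 CPM.

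In BS6.4 the later course of MYCTH_63778 differed from that in MJK20.3. At t1, BS6.4 had 350 and 343 CPM and MJK20.3 had 342 and 353 CPM, which overlap. At t2, BS6.4 had 125 and 116 CPM, against 700 and 637 CPM in MJK20.3, a log2 fold change of −2.68 ± 0.14 (adjusted p = 4.21e-16). BS6.4 had fallen below its own t1 level while MJK20.3 had gone above it. At t4, BS6.4 had 216 and 260 CPM, against 492 and 508 CPM in MJK20.3 (log2 fold change −1.54 ± 0.14, adjusted p = 8.7e-11).

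The other predicted transcription factor, MYCTH_49142 on chromosome 3 from 1988953 to 1991628, is a bZIP protein, a class that binds DNA as a dimer. It had 21.9 and 13.5 CPM at t1 in JK2.8, against 5.11 and 4.33 CPM at SS (log2 fold change 2.03 ± 0.34, adjusted p = 9.66e-06). Both t1 libraries were higher. BS7.8 at t2 had 10.9 and 4.18 CPM of it and JK2.8 had 10.2 and 10.5 CPM, which overlap, with a log2 fold change of −0.85 and an adjusted p of 0.050 that just failed (−1.60, adjusted p = 0.00245, without replicate 1 of BS7.8). At t4 it was called lower, at 8.5 and 6.1 CPM in BS7.8 against 9.18 and 10.9 CPM in JK2.8 (log2 fold change −0.87 ± 0.34, adjusted p = 0.0299), a call lost without replicate 2 of BS7.8 (adjusted p = 0.166) or either replicate of JK2.8 (adjusted p = 0.0548 and 0.120). BS6.4 at t2 had 3.91 and 7.09 CPM, against 14.4 and 9.28 CPM in MJK20.3 (log2 fold change −1.28 ± 0.37, adjusted p = 0.00635), a call lost without replicate 1 of MJK20.3 (−0.97, adjusted p = 0.105) or of BS6.4 (−0.91, adjusted p = 0.114).

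The single cellulase-class gene of the 55, MYCTH_2299721 on chromosome 1 from 10317714 to 10319077, encodes a lytic polysaccharide monooxygenase, an enzyme that cuts crystalline cellulose chains by oxidation. It had 62.6 and 87.8 CPM at t1 in JK2.8, against 6.01 and 6.62 CPM at SS, with no overlap (log2 fold change 3.72 ± 0.28, adjusted p = 2.12e-12). Levels at t2 were 7.83 and 11.2 CPM in BS7.8, against 145 and 199.96 CPM in JK2.8 (log2 fold change −4.50 ± 0.29, adjusted p = 2.26e-14). Both BS7.8 values were close to the SS level of that strain, 6.47 and 8.89 CPM.

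From SS through t1, t2, t3 to t4, MYCTH_2299721 averaged 12.3, 45.8, 25.9, 26.7 and 39.2 CPM in BS6.4 and 10.0, 55.7, 236, 223 and 85.1 CPM in MJK20.3. The strains were alike at t1, and BS6.4 then lacked the later and larger maximum. At t2, where it had 27.4 and 24.4 CPM in BS6.4, against 199 and 273 CPM in MJK20.3, the log2 fold change was −3.41 ± 0.27 (adjusted p = 5.73e-12), and at t4 it was −1.58 ± 0.25 (adjusted p = 4.26e-06). The change between t2 and t4 differed between the strains by 1.82 ± 0.36 (adjusted p = 0.000538).

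MYCTH_90182, on chromosome 6 from 1667998 to 1669031, is a GH16 mixed-linked glucanase, which hydrolyses β-glucans of plant cell walls. It had 27.4 and 25.1 CPM at t1 in JK2.8, against 5.18 and 2.67 CPM at SS (log2 fold change 2.8 ± 0.43, adjusted p = 4.37e-06). It then went on to 149 and 134 CPM at t3 in JK2.8. At t4 it had 6.53 and 17.2 CPM in BS7.8, against 74.7 and 83.2 CPM in JK2.8 (log2 fold change −3.16 ± 0.40, adjusted p = 1.36e-07). BS6.4 had 9.53 and 22.1 CPM at t4, against 85.3 and 101 CPM in MJK20.3 (log2 fold change −3.00 ± 0.40, adjusted p = 4.77e-07). Both BS7.8 and BS6.4 were thus below the compared strain at t4. BS6.4 had 30.3 and 22.8 CPM at t1, against 1.52 and 3.94 CPM at SS. Its level was already lower before the pulse, with a mean of 2.73 CPM at SS, against 10.4 CPM in MJK20.3. Against SS, d at t4 was 2.17 in BS6.4 and 3.04 in MJK20.3, so the gene was still raised in BS6.4.

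The GH79 gene MYCTH_2308415, of a family that includes β-glucuronidases, had 15.5 and 23.0 CPM at t1 in JK2.8, against 2.62 and 2.67 CPM at SS (log2 fold change 2.99 ± 0.38, adjusted p = 8.56e-08). Levels at t4 were 3.77 and 4.2 CPM in BS6.4, against 17.5 and 16.9 CPM in MJK20.3 (log2 fold change −2.57 ± 0.39, adjusted p = 2.22e-06). None of these groups overlapped.

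MYCTH_2307267, listed under AA8, a family of haem-binding domains found in cellobiose dehydrogenases, had 12.1 and 11.3 CPM at t1 in JK2.8, against 1.73 and 2.29 CPM at SS (log2 fold change 2.70 ± 0.32, adjusted p = 2.07e-08). In BS6.4 it was not called against MJK20.3 at either time: it had 8.23 and 7.91 CPM against 8.61 and 10.5 CPM at t2, and 10.9 and 14.2 CPM in both strains at t4. At t2 it was lower in BS7.8, at 5.38 and 2.26 CPM, against 7.84 and 8.88 CPM in JK2.8 (log2 fold change −1.53 ± 0.31, adjusted p = 0.000198).

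The second GH16 gene, MYCTH_37570 on chromosome 1 from 10834002 to 10835234, had a late course in MJK20.3. There it had 23.2 and 17.3 CPM at t4, against 3.20 and 2.62 CPM at t2 (log2 fold change 2.79 ± 0.48, adjusted p = 2.17e-05). In BS6.4 it had 2.58 and 2.26 CPM at t4, against 23.2 and 17.3 CPM in MJK20.3 (log2 fold change −3.53 ± 0.48, adjusted p = 3.31e-07). At t1, BS6.4 had 13.9 and 7.08 CPM, and MJK20.3 had 4.36 and 7.71 CPM. BS6.4 thus held its maximum at t1 and MJK20.3 at t4. At t4 it had 0.933 and 0.586 CPM in BS7.8, against 50.8 and 52.8 CPM in JK2.8 (log2 fold change −6.46 ± 0.53, adjusted p = 8.38e-12).

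The remaining 3 CAZymes act on fungal cell walls or related polymers. The chitinase gene MYCTH_113450 (GH18, degrading chitin) had 805 and 123 CPM at t1 in JK2.8, against 339 and 28.7 CPM at SS. Culture 1 was above culture 2 in both states, and within each culture t1 was above SS. The log2 fold change of 1.46 ± 0.92 was not called (adjusted p = 0.221), and with culture as a block it was 1.63 (adjusted p = 0.00265). Without replicate 1 at SS it was 4.16 (adjusted p = 0.0130). BS7.8 had 11.9 and 14.4 CPM at t4, against 2009 and 940 CPM in JK2.8 (log2 fold change −7.23 ± 1.21, adjusted p = 1.65e-05). This was the lowest fold change of BS7.8 over JK2.8 at t4 among the 55 genes with counts in both groups. The mean was already lower in BS7.8 at SS, at 21.4 CPM against 184 CPM in JK2.8, where the cultures differed widely. Against SS, d at t4 was −0.66 in BS7.8 and 3.00 in JK2.8.

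The α-mannanase gene MYCTH_78274 (GH76) had 56.0 and 81.3 CPM at t1 in JK2.8, against 24.4 and 44.7 CPM at SS, with an adjusted p of 0.0917, or 0.00525 with culture as a block. Its level was also high in the exponential phase, with 65.6 and 63.5 CPM in JK2.8. The GH55 exo-β-glucanase gene MYCTH_2305407 had 153 and 189 CPM at t1 in JK2.8, against 87.5 and 109 CPM at SS (log2 fold change 0.93 ± 0.32, adjusted p = 0.0186). That call was lost without replicate 1 at SS (0.80, adjusted p = 0.126) or replicate 2 at t1 (0.75, adjusted p = 0.126).

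**Figure D5:**
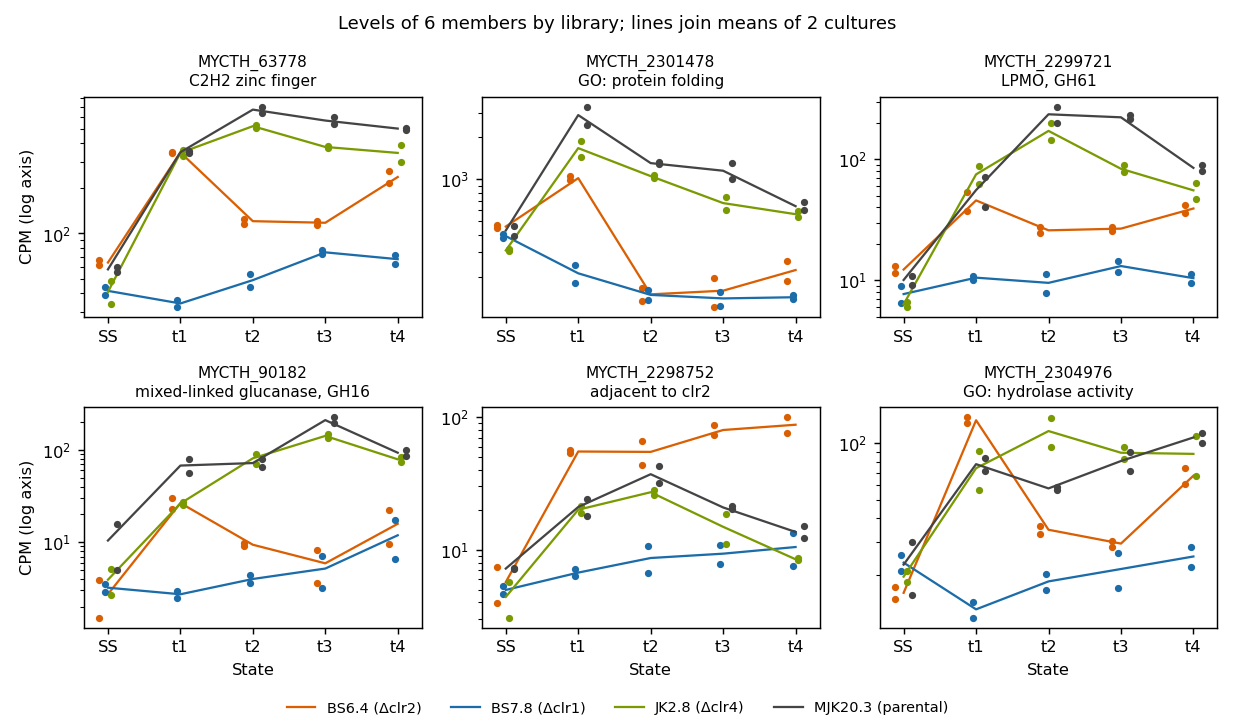
CPM of 6 genes by library on log axes in each strain at SS and 0.5, 1, 2 and 4 h after the pulse (t1 to t4), 1 point per culture, with lines through the means of 2 cultures. MYCTH_63778 has 342 to 353 CPM at t1 in BS6.4 and MJK20.3 and 32.4 to 36.0 CPM in BS7.8, and its line then drops at t2 in BS6.4.

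The most abundant transcript of the 55, also per length of gene, was that of MYCTH_2315548, which has no annotation in the tables used. It had 3988 and 2615 CPM at t1 in JK2.8, against 1831 and 1801 CPM at SS (log2 fold change 0.99 ± 0.21, adjusted p = 0.000207). At t1 it had 9946 and 9473 CPM in BS6.4 and 8534 and 10194 CPM in MJK20.3, which overlap, and 1935 and 1807 CPM in BS7.8. By t2 the level had dropped again in BS6.4, to 3555 and 4207 CPM, against 9946 and 9473 CPM at t1. The mean also fell from t1 to t2 in MJK20.3, from 9364 to 3709 CPM, and in JK2.8, from 3301 to 1876 CPM.

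MYCTH_2301478, second per length, carries the term protein folding. It had 1892 and 1455 CPM at t1 in JK2.8, against 304 and 314 CPM at SS (log2 fold change 2.57 ± 0.21, adjusted p = 9.65e-12). BS7.8 had 160 and 137 CPM of it at t2, against 1026 and 1083 CPM in JK2.8 (log2 fold change −3.18 ± 0.22, adjusted p = 9.15e-14). The values of BS7.8 were below its own SS level of 405 and 379 CPM. BS6.4 had 134 and 166 CPM at t2, against 1327 and 1286 CPM in MJK20.3, a log2 fold change of −3.33 ± 0.22 (adjusted p = 5.09e-14). At t1, BS6.4 had 983 and 1056 CPM, so it was high for a single sampling time in that strain. MJK20.3 averaged 2886 CPM at t1, so the t1 level was already lower in BS6.4.

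MYCTH_2054249, next per length and without annotation, kept its level longer. It had 1103 and 725 CPM at t1 in JK2.8, against 240 and 204 CPM at SS (log2 fold change 2.17 ± 0.23, adjusted p = 1.9e-09), and 637 and 578 CPM at t4. At t4 it had 212 and 257 CPM in BS7.8, against 637 and 578 CPM in JK2.8 (log2 fold change −1.79 ± 0.22, adjusted p = 4.44e-08). BS6.4 had 433 and 474 CPM at t4, against 597 and 586 CPM in MJK20.3, a smaller gap (log2 fold change −0.85 ± 0.22, adjusted p = 0.00165).

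MYCTH_2304976, with the term hydrolase activity, had the widest gap between BS6.4 and BS7.8 in d at t1, by choice. It had 91.1 and 56.6 CPM at t1 in JK2.8, against 18.3 and 20.9 CPM at SS (log2 fold change 2.05 ± 0.27, adjusted p = 1.97e-07). At t2 it had 20.2 and 16.7 CPM in BS7.8, against 95.6 and 137 CPM in JK2.8 (log2 fold change −3.01 ± 0.28, adjusted p = 2.53e-10). In MJK20.3 it had 101 and 114 CPM at t4, against 58.8 and 56.5 CPM at t2 (log2 fold change 0.89 ± 0.26, adjusted p = 0.00721), one of 5 genes that still rose there, though without replicate 2 of MJK20.3 at t4 the adjusted p was 0.0517.

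MYCTH_2308036 and MYCTH_54570 had few counts at SS and in BS7.8 after the pulse. MYCTH_2308036, also with the term hydrolase activity, had 31.1 and 37.7 CPM at t1 in JK2.8, against 0.320 and 0.637 CPM at SS (log2 fold change 6.39 ± 0.53, adjusted p = 3.52e-11). At t4 BS7.8 had no count of it, and JK2.8 had 16.1 and 22.4 CPM. Set against a floor of 3 counts over the group, it was at least 111-fold lower in BS7.8. MYCTH_54570, without annotation, had 23.9 and 25.3 CPM at t1 in JK2.8, against 1.15 and 1.27 CPM at SS (log2 fold change 4.48 ± 0.47, adjusted p = 4.54e-09). At t2 it had no count in BS7.8 and was at least 63.7-fold lower than in JK2.8, where it had 13.3 and 11.8 CPM. MYCTH_2305452 was at least 39.9-fold lower in BS7.8 at t2 as well, although it averaged 28.2 CPM in BS7.8 and 21.1 CPM in JK2.8 in the exponential phase.

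MYCTH_2129802 had 3.11 and 1.57 CPM at t1 in JK2.8 and no count at SS, at least 19.8-fold higher, and at t4 it was at least 8.41-fold higher. MYCTH_2303110, which met the level limit through JK2.8 alone, had 15.2 and 17.5 CPM at t1 there, against 1.53 and 1.02 CPM at SS, a difference that its choice as a member rests on in part and that is given without a test. At the weak end, MYCTH_82505 had 96.8 and 130 CPM at t1 in JK2.8, against 57.1 and 79.7 CPM at SS (log2 fold change 0.87 ± 0.19, adjusted p = 0.000500).

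Between t2 and t4 part of the genes declined in JK2.8 and in the parental strain. In JK2.8, 28 of the 55 were lower at t4 than at t2 and 3 higher (22.0% and 20.7% of all tested genes), with a median log2 fold change of −0.70. In MJK20.3, 23 were lower and 5 higher (18.2% and 19.0%), with a median of −0.40. Of these, 21 genes were lower in both strains. In BS6.4, 5 were lower and 7 higher (17.2% and 16.9%), with a median of 0.20 (6 higher without MYCTH_2129802), and in BS7.8, 10 were lower and 3 higher (14.6% and 16.5%), with a median of −0.11. With library totals these were 3 lower and 17 higher in BS6.4, and 7 lower and 6 higher in BS7.8. The BS7.8 counts also moved with single libraries, to 6 genes called without replicate 2 at t2 and 7 without replicate 2 at t4.

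The difference of these changes was tested directly. The change from t2 to t4 was higher in BS6.4 than in MJK20.3 for 15 of the 55 genes and lower for 2, where 4.85% and 8.02% of all tested genes were, with a median difference of 0.41 in log2. Without MYCTH_2129802, 14 were higher. In the set that needed both regulators 44 of 100 genes were higher and 2 lower, and in the set that needed neither 19 of 121 were higher and 1 lower. Between BS7.8 and JK2.8 the change was higher in BS7.8 for 13 and lower for 3, where 12.2% of all tested genes were called in each direction.

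MYCTH_2300272 was higher at t4 than at t2 in BS6.4 (log2 fold change 1.07, adjusted p = 0.000676) and lower in MJK20.3 (−0.90, adjusted p = 0.0029). It had 122 and 122 CPM at t4 in BS6.4, against 47.3 and 48.6 CPM at t2, while MJK20.3 had 93.2 and 85.4 CPM at t4, against 177 and 155 CPM at t2. The direction was opposite in the 2 strains, with a difference of 1.97 ± 0.34 (adjusted p = 0.000110). At t2 it was lower in BS6.4 than in MJK20.3 (log2 fold change −2.00 ± 0.25, adjusted p = 7.48e-08), and at t4 it was not called (−0.02 ± 0.23, adjusted p = 0.944). Fold changes are scaled by TMM, which at t4 set BS6.4 lower against MJK20.3 than the CPM values do.

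MYCTH_2298752 was the gene that stood highest in BS6.4 over MJK20.3 at t4. It had 75.8 and 99.7 CPM at t4 in BS6.4, against 12.2 and 15.0 CPM in MJK20.3 (log2 fold change 2.22 ± 0.31, adjusted p = 5.35e-07). It lies on chromosome 1 from 8526484 to 8527097, and the next gene is clr2, which starts 10318 bp away and was deleted in BS6.4. The part of the deletion in this difference was not tested. In MJK20.3 it had 12.2 and 15.0 CPM at t4, against 42.6 and 31.7 CPM at t2, while BS6.4 had 75.8 and 99.7 CPM at t4, against 43.2 and 66.3 CPM at t2 (difference 1.86 ± 0.43, adjusted p = 0.0028).

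MYCTH_96234 and MYCTH_2129802 had low counts. MYCTH_96234 had 5.76 and 4.04 CPM in BS6.4, against 1.29 and 0.937 CPM in MJK20.3 (log2 fold change 1.64 ± 0.59, adjusted p = 0.0222), a call lost without either replicate of MJK20.3 (adjusted p = 0.0589 and 0.138) or replicate 1 of BS6.4 (adjusted p = 0.110). MYCTH_2129802 had 9.93 and 10.8 CPM in BS6.4, against 1.93 and 1.87 CPM in MJK20.3 at t4. This gene is a member only through its level in BS6.4 at t4, so the difference is given without a test.

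In BS7.8 at t4 the single gene above JK2.8 was MYCTH_2297253, with 12.7 and 5.51 CPM against 2.50 and 2.92 CPM in JK2.8 (log2 fold change 1.34 ± 0.43, adjusted p = 0.00919). Without replicate 1 of BS7.8 it was 0.56 (adjusted p = 0.371), and without replicate 1 of JK2.8 it was 1.23 (adjusted p = 0.0816), so the call rested on these libraries. At t2 the single gene above JK2.8 was MYCTH_2308015, with 74.7 and 91.9 CPM in BS7.8 against 32.0 and 44.4 CPM in JK2.8 (log2 fold change 0.79 ± 0.20, adjusted p = 0.00252), a call lost without replicate 2 of BS7.8 (0.58, adjusted p = 0.0699) or replicate 1 of JK2.8 (0.55, adjusted p = 0.103).

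In the exponential phase, before the steady state, the 55 genes had no common direction. In JK2.8, 10 were higher and 17 lower in the exponential phase than at SS, where 25.6% and 22.1% of all tested genes were, with a median log2 fold change of −0.30. With library totals 6 were higher and 22 lower. The largest decrease was that of MYCTH_113450, with 3.20 and 2.97 CPM at ex against 339 and 28.7 CPM at SS (log2 fold change −5.67 ± 1.2, adjusted p = 0.000384). MYCTH_63778 was lower as well, with 9.69 and 7.81 CPM at ex against 47.9 and 33.7 CPM at SS (log2 fold change −2.01 ± 0.16, adjusted p = 1.94e-12).

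The limits of the choice cut through a continuum. Just inside the lower parental limit lay MYCTH_37570, MYCTH_103134 and MYCTH_2312471 with d of 1.00, 1.01 and 1.02, and just outside MYCTH_59946, MYCTH_2300643 and MYCTH_2137832 with 0.98, 0.95 and 0.93. Just inside the upper limit lay MYCTH_2309566, MYCTH_2308036 and MYCTH_2300949 with 2.93, 2.87 and 2.81. Just outside it were the xylanase regulator gene xyr1 (MYCTH_2310145) with 3.03, MYCTH_73182 with 3.05 and MYCTH_90594 with 3.08.

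The limits in the deletion strains were as crowded. For BS7.8, MYCTH_2299528, MYCTH_2305407 and MYCTH_82505 were inside with d of 0.45, 0.42 and 0.42, and MYCTH_2305156, MYCTH_97932 and MYCTH_2312442 were outside, each with 0.51. For BS6.4, MYCTH_2305614, MYCTH_106768 and MYCTH_50335 were inside with 1.04, 1.07 and 1.08, and MYCTH_2294574, MYCTH_100589 and MYCTH_44065 were outside with 0.99, 0.97 and 0.96. Applied to replicate 1 or replicate 2 alone, the limits gave 57 and 76 genes, of which 28 met them in both.

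The 55 genes were spread over the 7 chromosomes of the assembly, with 13, 10, 8, 7, 11, 3 and 3 genes on chromosomes 1 to 7. Their median length was 1582 bp, against 1868 bp for the 7661 genes at 10 CPM or more. Some lay beside strongly induced genes: for 8 of the 55 (14.5%) a directly adjacent gene had a parental d above 3, as it did for 161 of 7661 genes at 10 CPM or more (2.10%), for 1 of the 100 that needed both regulators and for 4 of the 121 that needed neither. These shares are a description and were not tested.

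The strong neighbours include genes for cellulose and pectin breakdown. MYCTH_80161 lies 1130 bp from MYCTH_66804, a β-glucosidase gene, and MYCTH_2295555 lies 2244 bp from MYCTH_86753, an endoglucanase gene. MYCTH_2128390 lies 2123 bp from the pectin lyase gene MYCTH_102322, and its neighbour MYCTH_2307560 on the far side, at 3566 bp, is itself one of the 55. The other pairs are MYCTH_2139925 with MYCTH_88807 at 1623 bp, MYCTH_2295777 with MYCTH_114107 at 3452 bp, MYCTH_49142 with MYCTH_81013 at 6833 bp, MYCTH_2298752 with clr2, and MYCTH_96234 with MYCTH_84133 at 13139 bp. The sources do not say whether counting used strand, so reads running on from a neighbour cannot be told apart from the gene's own.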

How the data were processed

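Poly(A) RNA was sequenced from 48 libraries in 24 groups of 2 cultures. The authors checked reads with FastQC, aligned them with STAR to assembly ASM22609v1 and deposited raw counts per gene. The counting program and versions are not given in the sources used here. JK2.8 at t4 has 1 culture sequenced on 2 flow cells, which stands as 1 column among the deposited counts. The deposited scaled counts and the authors' own fold changes and p-values, from Wald tests of DESeq2, were not used.

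The members, sets and lists were chosen with earlier results of these data known. From the raw counts, CPM were computed by library total. Tests used edgeR 4.0.16 in R 4.3.3: TMM scaling (factors 0.8126 to 1.2829), a filter on low counts with a minimum of 10 (8565 genes kept, 727 removed, all 55 members kept), robust quasi-likelihood fits of 24 group means and Benjamini-Hochberg adjustment over all tested genes at 0.05. SE is the fold change over the root of its F. Tests used only libraries that gave no d for the choice. All groups entered its level limit, which 2 members met through a single tested group (MYCTH_2303110 at t1 in JK2.8, MYCTH_2129802 at t4 in BS6.4), so these have no p for that group. Fold changes are BS6.4 over MJK20.3, BS7.8 over JK2.8, later over earlier state, or ex over SS.

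Replicate numbers of a strain mark the same bioreactor culture sampled over time, as the duplicate chemostats were sampled at each state, so culture as a block is an alternative for comparisons within a strain. The deviations of same-numbered libraries from their group means correlated with a median r over 15 pairs of states of 0.217 in BS7.8, 0.0854 in BS6.4, 0.248 in JK2.8 and 0.0396 in MJK20.3, and of −0.00046 between strains. Further alternatives were library totals, no filter, DESeq2 1.42.0, a fit of the compared strains only, each library left out, and for the choice another pseudocount, level limit and scaling. The script was tested on simulated counts. Libraries of BS6.4 and MJK20.3 held fewer counts than those of BS7.8 and JK2.8 by median, so their values carry more counting error.

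Genes named are CAZymes and predicted transcription factors among the members, the 5 with the widest gap in d, the 5 largest and 3 smallest changes in JK2.8 at t1, the 5 most abundant in MJK20.3, up to 3 called per direction in the t4 and difference tests, those nearest each limit, and clr1, clr2 and clr4. Other genes named in the text were chosen after their values were seen. CAZyme, regulator and term lists came from the study's tables, 6 identifiers of which were not matched. The term lists came from its enrichment of genes called in these data, so they are not whole terms. No sequences are shown.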

Additional observations from a re-analysis of the deposited data

Results flagged for a closer look

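The change from t2 to t4 differed between BS6.4 and MJK20.3 for 17 of the 55 genes, and between BS7.8 and JK2.8 for 16, by the edgeR test of the difference itself. The largest differences between BS6.4 and MJK20.3 were those of MYCTH_2129802 (3.26), MYCTH_2305858 (3.03, adjusted p = 0.000371) and MYCTH_2300272 (1.97, adjusted p = 0.000110) on the positive side, and of MYCTH_37570 (−3.11, adjusted p = 0.00613) and MYCTH_91276 (−1.45, adjusted p = 0.00851) on the negative side. MYCTH_2129802 met the level limit for the 55 genes only through BS6.4 at t4 (10.4 CPM on average, 4.93 CPM in the next group), so its difference is a description with no test, and without it the count is 16 of 54. MYCTH_2305858 had 11.3 and 13.2 CPM at t4 in BS6.4, against 6.38 and 5.44 CPM at t2, and in MJK20.3 it had 5.31 and 4.68 CPM at t4, against 27.4 and 19.6 CPM at t2. MYCTH_91276 had 35.3 and 55.8 CPM at t4 in BS6.4, against 24.5 and 24.9 CPM at t2, and in MJK20.3 it had 82.7 and 106 CPM at t4, against 26.4 and 18.1 CPM at t2. Of the other 4, MYCTH_2305858 and MYCTH_2300272 kept their call when any 1 library of the comparison was left out. The adjusted p of MYCTH_37570 was 0.0845 without replicate 1 of BS6.4 at t2 (difference −2.68), and that of MYCTH_91276 was 0.0578 without replicate 2 of MJK20.3 at t2 and 0.0785 without replicate 1 of BS6.4 at t4.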

How the results depend on the processing

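The total counts of called genes among the 55, both directions together, stayed within 1.5 times of those reported under every alternative run, except for the change from t2 to t4 in BS6.4 with library totals (20 genes, 17 higher and 3 lower, against 12) and in BS7.8 without replicate 2 at t2 (6) or at t4 (7), against 13. By direction, library totals also moved the genes higher in BS6.4 over MJK20.3 at t4 (17, against 9), higher at ex over SS in JK2.8 (6, against 10) and higher at t4 over t2 in BS7.8 (6, against 3). With 1 library left out, the ranges were 49 to 52 for t1 against SS, 30 to 33 for t4 and 20 to 25 for ex in JK2.8, 41 to 43 and 36 to 37 for BS7.8 against JK2.8 at t2 and t4, 26 to 27 and 23 to 26 for BS6.4 against MJK20.3, 19 to 22, 6 to 16, 8 to 10 and 25 to 27 for t4 against t2 in MJK20.3, BS7.8, BS6.4 and JK2.8, and 12 to 15 and 11 to 15 for the differences of BS6.4 from MJK20.3 and of BS7.8 from JK2.8. The limits themselves gave 57 to 76 genes on 1 replicate, 55 with TMM scaling (53 shared) or a pseudocount of 0.5 (52 shared), and 58 at 5 CPM.

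Of 1188 values of single genes under an alternative, 1109 kept direction and call, 76 lost the call and 3 reversed: MYCTH_2308015 at t1 against SS in JK2.8 (−0.051 with library totals), and MYCTH_37570 without replicate 2 of BS7.8 at t2, for t4 against t2 in BS7.8 (2.06, against −2.54 without replicate 1) and for its difference from JK2.8 (0.18, against −4.43). That gene had 0.163 and 3.95 CPM in the 2 cultures of BS7.8 at t2. The 1188 values belong to 119 results of 25 genes, and 29 of these results lost the call under at least 1 alternative. The causes of the other changes were not tested.

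With culture as a block, which only comparisons within a strain or differences of such allow, 54, 38 and 33 genes were called at t1, t4 and ex against SS in JK2.8, 31, 16, 14 and 36 for t4 against t2 in MJK20.3, BS7.8, BS6.4 and JK2.8, and 19 and 20 for the differences. The block ended 1 call, that of MYCTH_37570 for t4 against t2 in BS7.8 (−1.62, adjusted p = 0.0562). No paired analysis was possible between strains, because each culture belongs to 1 strain. Groups of 2 cultures limit what could be called among genes of a few CPM.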

Other observations

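In JK2.8 and MJK20.3 the 2 cultures differed most in MYCTH_113450, a chitinase gene. The median over states of the difference between its cultures was 2.24 in log2 in JK2.8, 0.90 in BS6.4 and 1.30 in MJK20.3, while the median over the 55 genes was 0.22, 0.24 and 0.26. In the other strains MYCTH_50335 differed most, by 1.69 in BS7.8 and 1.09 in BS6.4, where the medians over the 55 genes were 0.27 and 0.24.

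MYCTH_2309566 was one of several genes with another SS level at each sequencing centre. It had 27.1 and 29.4 CPM in BS7.8 and 28.3 and 34.5 CPM in JK2.8 at SS, while BS6.4 had 128 and 115 CPM and MJK20.3 had 128 and 117 CPM. MYCTH_96234 averaged 0.255 CPM in MJK20.3 and 0.443 CPM in BS6.4 at SS, against 5.53 CPM in BS7.8 and 5.42 CPM in JK2.8. In the same order, MYCTH_2295777 averaged 39.6 and 41.4 CPM, against 121 and 114 CPM. MYCTH_2315548 averaged 3350 and 3342 CPM, against 1953 and 1816 CPM. Other genes were alike, such as MYCTH_2054249 with 208 and 219 CPM, against 232 and 222 CPM. Such genes were not counted. Centre and strain pair cannot be told apart here.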
